A study of Mus musculus with 4 samples.

Results

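The genes described here are 30 genes of T cell identity and T cell receptor signalling, taken by gene symbol from the deposited read counts of 38087 genes. All 30 symbols were found, and all 30 were among the 20695 genes that passed the filter on low counts. By role they comprised 4 chains of the CD3 complex, 3 coreceptor genes, 6 adhesion and costimulatory surface proteins, 10 proximal kinases, adaptors and regulators, and 7 transcription factors and chromatin regulators. RNA came from 4 mouse samples, 2 from mice lacking Becn1 (Beclin-1, an autophagy protein) in myeloid cells, labelled Becn1-M-KO and called KO here, and 2 from wild-type (WT) mice. All mice were C57BL/6 at postnatal week 20, and every sample was labelled as cervical lymph node. By the series title the KO tissue was B cell lymphoma and the WT tissue a node control, so an effect of genotype and one of the tumour cannot be told apart. Neither the promoter driving the myeloid deletion nor the number of animals is given in the sources used here. The labels do not tie replicates to separate animals, and the p-values cover no more than the scatter among these libraries, part of which may be technical.

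The T cell receptor recognises peptide bound to an MHC molecule but has no signalling tail of its own. The CD3 chains that travel with it carry the tyrosine motifs that the kinase Lck phosphorylates once the CD4 or CD8 coreceptor brings it close; Zap70 then docks there and phosphorylates the adaptors Lat and SLP-76, and signals pass on to calcium, Ras and protein kinase C. In a lymph node, T cells fill the paracortex, and a small set of transcription factors, Tcf7, Lef1, Bcl11b and Gata3 among them, keeps them in the T lineage.

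The libraries held 15604247 and 20067004 reads in KO replicates 1 and 2, against 16141605 and 17874699 reads in WT replicates 1 and 2. WT replicate 1 stood apart before any comparison: 8 gland epithelium markers took 98.8 and 3391 CPM (reads per 1000000) of all reads in the KO libraries, 321462 CPM in WT replicate 1 and 6645 CPM in WT replicate 2. Without Spt1, a salivary secretory gene that supplied nearly all of the KO replicate 2 and WT replicate 1 sums, the other 7 gland markers held 11.5 and 19.2 CPM in the KO libraries, 1286 CPM in WT replicate 1 and 1197 CPM in WT replicate 2. Lymphoid markers were sparse in WT replicate 1, where 8 B cell markers summed to 19.4 CPM, against 13420 and 12504 CPM in the KO libraries and 2915 CPM in WT replicate 2. Ighm alone supplied 11056 and 10225 CPM of the KO sums, 16.1 CPM in WT replicate 1 and 1419 CPM in WT replicate 2. The B cell sums therefore mostly follow Ighm in the KO libraries. The labelled tissue was therefore matched by lymphoid markers in the KO libraries and WT replicate 2 but hardly in WT replicate 1, and each result is given against each WT library. Becn1 stood at 49.4 and 53.2 normalised CPM in the KO libraries and at 54.7 and 63.3 in the WT libraries; because only myeloid cells lack it, its level in whole tissue does not check the genotype. The Y-linked Eif2s3y had 767 and 1083 reads in the KO libraries and 1 and 6 reads in the WT libraries, while Xist had 3 and 34 reads in the KO libraries and 2088 and 5314 in the WT libraries, so sex and genotype cannot be told apart either.

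The start sites of Cd3d and Cd3g, 2 members of one CD3 gene cluster on chromosome 9, lie 1355 bases apart and point away from each other. Their promoters are shown because they are neighbours whose levels differed from WT replicate 2 by unequal amounts; those of Lck and Lcp2 are shown because both act early in receptor signalling and moved in opposite directions against WT replicate 2. Each sequence is the 250 bases before the start site, 5′ to 3′ on the gene's strand, from RefSeq (build GRCm38.p6). Capitals mark letters found for 4 short motifs on either strand: GGAAGT for ETS factors, TGTGGT for RUNX factors, CTTTGA for TCF/LEF factors and AGATAA for GATA factors. Each was also read as its reverse complement.
Cd3d, chr9:44981536-44981785, plus strand: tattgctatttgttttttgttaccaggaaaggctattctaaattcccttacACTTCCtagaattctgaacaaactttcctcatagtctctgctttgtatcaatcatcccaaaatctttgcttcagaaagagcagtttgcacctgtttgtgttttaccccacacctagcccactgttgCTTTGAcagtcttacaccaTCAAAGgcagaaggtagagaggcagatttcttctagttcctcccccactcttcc
Cd3g, chr9:44980432-44980681, minus strand: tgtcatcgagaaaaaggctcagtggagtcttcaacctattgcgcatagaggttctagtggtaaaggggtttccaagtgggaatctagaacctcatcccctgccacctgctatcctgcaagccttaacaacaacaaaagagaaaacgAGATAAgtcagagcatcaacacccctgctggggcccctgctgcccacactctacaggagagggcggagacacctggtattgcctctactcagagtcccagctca
Lck, chr4:129573642-129573891, minus strand: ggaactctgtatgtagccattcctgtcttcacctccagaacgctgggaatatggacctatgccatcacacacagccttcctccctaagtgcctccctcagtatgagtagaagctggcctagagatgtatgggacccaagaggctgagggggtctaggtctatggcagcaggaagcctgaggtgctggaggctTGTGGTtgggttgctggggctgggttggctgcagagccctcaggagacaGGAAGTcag
Lcp2, chr11:34046678-34046927, plus strand: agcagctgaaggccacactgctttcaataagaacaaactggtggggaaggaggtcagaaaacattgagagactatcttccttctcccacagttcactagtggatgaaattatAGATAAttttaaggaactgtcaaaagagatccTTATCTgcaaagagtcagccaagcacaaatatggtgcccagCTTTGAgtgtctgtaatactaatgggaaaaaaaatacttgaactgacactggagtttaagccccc

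In the Cd3d window the ETS letters began 199 bases before the start and the TCF/LEF letters 73 and 54 bases before it. The Cd3g window, on the other side of the gap, held only the GATA letters, at 104 bases. The Lck window held ETS letters at 9 bases and RUNX letters at 58 bases, and the Lcp2 window held TCF/LEF letters at 65 bases and GATA letters at 138 and 106 bases. Windows were found for 21 of the 30 members. The start site of the Gata3 window lay 11434 bases from the deposited gene start. Bases after the start site of the Lef1 window were not found in its transcripts. Member windows were those nearest the deposited gene start, whereas the windows of all genes were the first listed for each symbol. The shares below are therefore not strictly like for like. ETS letters stood in 7 of these 21 (33.3%, against 20.0% of all 27025 windows), TCF/LEF letters in 5 (23.8% against 14.0%), GATA letters in 2 (9.52% against 10.3%) and RUNX letters in 1 (4.76% against 14.2%). These are matches of letters in a short window, and a missing match says nothing about the factor.

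Read for read, the KO libraries carried less of this gene set than WT replicate 2 and far more than WT replicate 1. The 30 members together held 1950 and 1970 CPM of all reads in the KO libraries, against 71.9 CPM in WT replicate 1 and 2361 CPM in WT replicate 2. The KO libraries lay within a few percent of each other, below WT replicate 2 and far above WT replicate 1. In bulk tissue, fewer T cells and less RNA per T cell cannot be told apart.

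Against WT replicate 2, 20 members were lower in KO and 2 were higher at an adjusted p under 0.05, and 8 were not called (edgeR quasi-likelihood test, Benjamini-Hochberg adjustment over all genes tested). Of all genes tested in that comparison, 45.0% were called, 23.3% lower and 21.7% higher. The members' median log2 fold change was −0.56, within a range from −1.60 to 0.83, whereas the median over all genes was −0.0018. A negative fold change was found for 26 of 30 members and for 50.1% of all genes. The spread in this test comes from the 2 KO libraries alone, and WT replicate 2 is assumed to vary as they do. B cell and gland markers also differed in this comparison, as their sums above show, and their part in the members' differences was not tested. With DESeq2, 9 of the 22 calls were kept: Cd3d, Cd8b1, Thy1, Lck, Skap1, Prkcq, Tcf7 and Lef1 were lower and Lcp2 was higher, and the other 13 calls were lost. Over all genes tested DESeq2 called 2052 higher and 2252 lower, against 4493 and 4830 with edgeR.

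**Figure D1:**
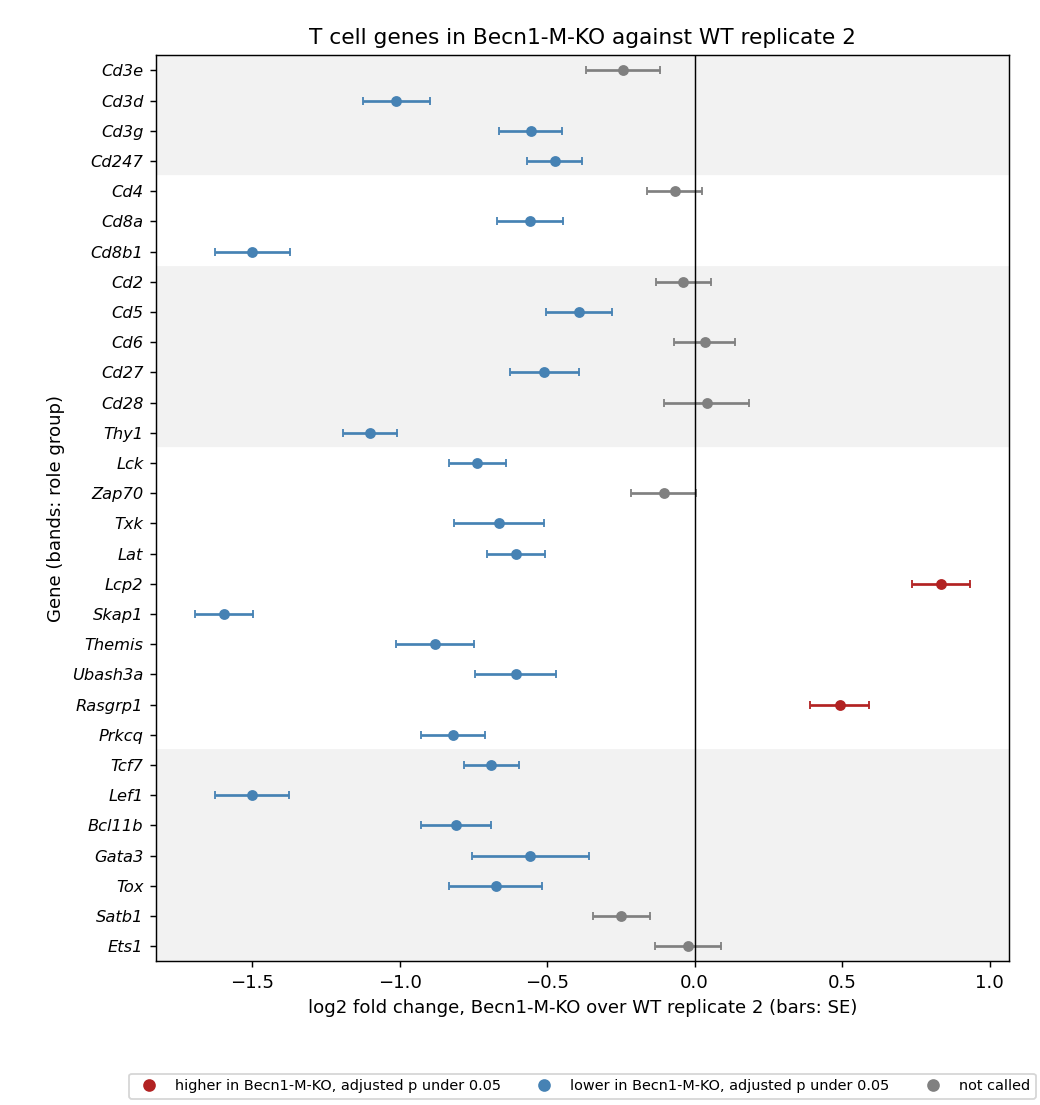
Log2 fold change of each of the 30 members, KO over WT replicate 2, grouped by role, with points for the estimates and bars for their standard errors. Skap1 at −1.60 lies lowest and Lcp2 at 0.83 highest, and only Lcp2 and Rasgrp1 were called higher.

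Of the CD3 chains, Cd3d, Cd3g and Cd247 were lower in KO than in WT replicate 2, and Cd3e was not called. Cd3d, the delta chain, had 35.4 and 31.2 normalised CPM in the KO libraries, against 0.482 in WT replicate 1 and 67.0 in WT replicate 2. Cd3g, the gamma chain, had 35.4 and 36.2 CPM in KO, against 0.482 and 52.6 CPM in WT replicates 1 and 2. The KO libraries fell between the WT libraries for both genes, close to each other. Cd3d was 2.02-fold lower than in WT replicate 2 (log2 fold change −1.01 ± 0.11 SE, adjusted p = 4.1e-05) and Cd3g 1.47-fold lower (−0.56 ± 0.11, adjusted p = 0.00175). Cd3e, the epsilon chain, had 27.6 and 26.2 CPM in KO, 0.121 CPM in WT replicate 1 and 31.8 CPM in WT replicate 2 (log2 fold change −0.24 ± 0.13 against WT replicate 2, adjusted p = 0.146). Cd247 encodes the zeta chain and had 68.7 and 70.5 CPM in KO, against 16.9 CPM in WT replicate 1 and 96.7 CPM in WT replicate 2 (log2 fold change −0.47 ± 0.093, adjusted p = 0.00201). Part of Cd247 overlaps Pou2f1 on the other strand, and since the strand used in counting is not given in the sources used here, some of its reads may be Pou2f1's.

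**Figure D2:**
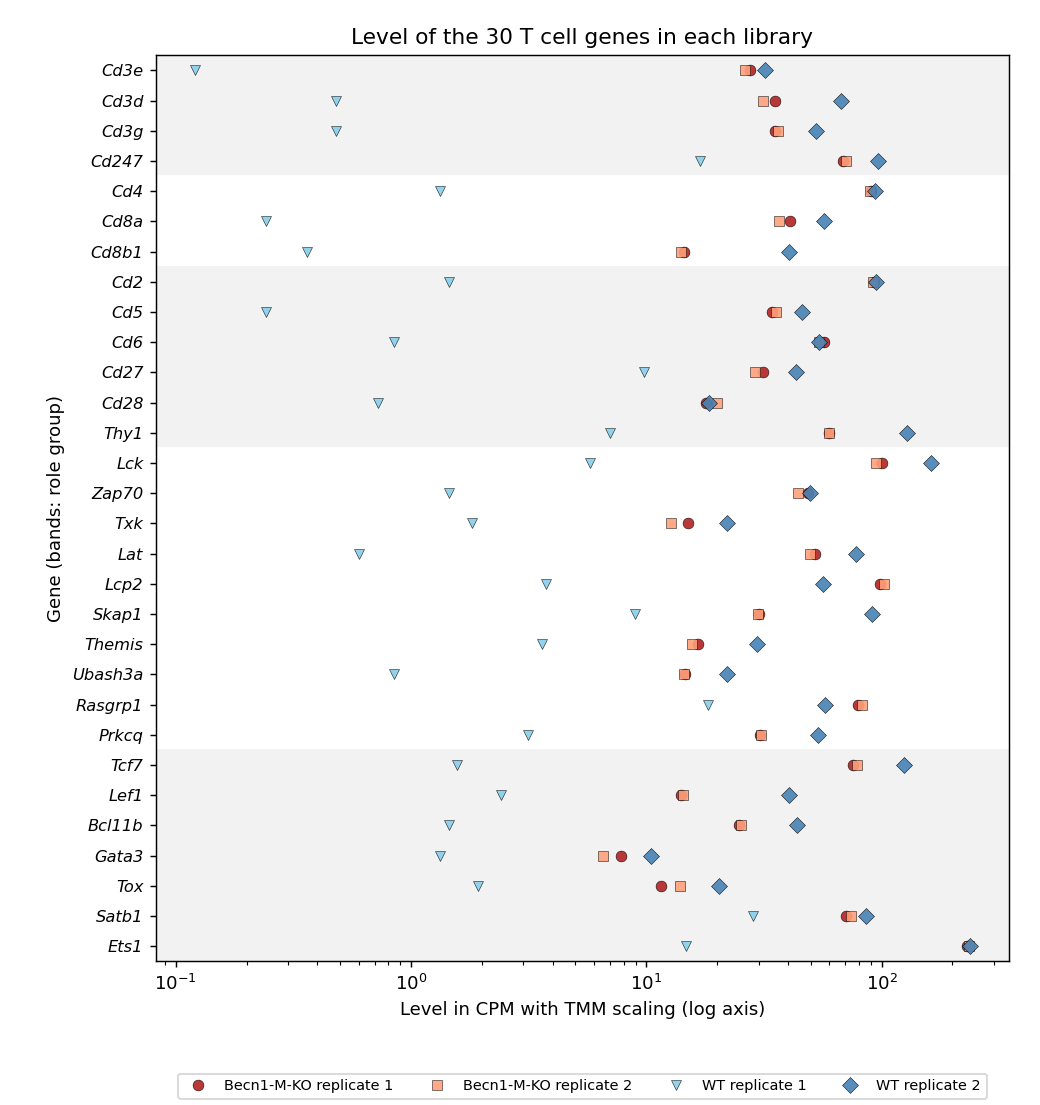
Normalised CPM of the 30 members in each of the 4 libraries, on a log axis, by role. The KO points lie close together, from 3.02-fold below WT replicate 2 for Skap1 to 1.78-fold above it for Lcp2. WT replicate 1 lies below the KO points for every member.

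Among the coreceptors, Cd8a and Cd8b1 were lower in KO than in WT replicate 2, and Cd4 was not called. Cd4, the coreceptor for MHC class II, had 90.0 and 89.0 CPM in KO, against 1.33 CPM in WT replicate 1 and 93.8 CPM in WT replicate 2 (log2 fold change −0.067 ± 0.093, adjusted p = 0.600). Its level in KO lay within 2 standard errors of WT replicate 2, and with library totals alone as the scaling the estimate turned positive, at 0.063. Cd8a, the alpha chain of the MHC class I coreceptor, had 41.0 and 36.6 CPM in KO, against 0.241 CPM in WT replicate 1 and 57.0 CPM in WT replicate 2 (log2 fold change −0.56 ± 0.11, adjusted p = 0.00234). Cd8b1, the beta chain found on conventional CD8 T cells, had 14.5 and 14.1 CPM in KO, against 0.362 CPM in WT replicate 1 and 40.4 CPM in WT replicate 2. Both KO values were well under WT replicate 2, a 2.83-fold difference (log2 fold change −1.50 ± 0.13, adjusted p = 4.8e-06). The 2 CD8 genes are neighbours on chromosome 6 (build mm10), Cd8b1 from 71322836 to 71337477 and Cd8a from 71373427 to 71379171.

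CD8 therefore made up a smaller share of coreceptor reads in KO than in WT replicate 2. Of reads on Cd4, Cd8a and Cd8b1, the CD8 genes took 38.1% in KO replicate 1 (95% exact Clopper-Pearson interval 36.3 to 39.9) and 36.3% in KO replicate 2 (34.7 to 37.9). They took 31.2% in WT replicate 1 (11.0 to 58.7, from 5 of 16 reads) and 50.9% in WT replicate 2 (49.4 to 52.5). Both KO intervals lay below that of WT replicate 2, and the mean KO share was 13.7 percentage points lower. The interval of WT replicate 1 was too wide to place it. Within CD8, Cd8b1 took 26.1% (23.5 to 28.8) and 27.8% (25.4 to 30.3) of the reads in the KO libraries, 60.0% (14.7 to 94.7, from 3 of 5 reads) in WT replicate 1 and 41.4% (39.3 to 43.6) in WT replicate 2. The alpha chain is also made without the beta chain by some dendritic cells and other cells. The 6 dendritic cell markers summed to 398 and 383 CPM of all reads in KO, 9.42 CPM in WT replicate 1 and 115 CPM in WT replicate 2, and Itgax alone supplied 307 and 286 CPM of the KO sums. Of the 6, 3 were higher in KO than in WT replicate 2, 1 was lower and 2 were not called. Of all genes tested, 21.7% were called higher in that comparison and 23.3% lower. Xcr1 and Clec9a, which mark the CD8-alpha dendritic cell lineage, had log2 fold changes of 0.84 and 0.98 against WT replicate 2 (adjusted p = 0.00426 and 0.000883), Itgax had 3.63, and Siglech, a plasmacytoid dendritic cell marker, had −1.82 (adjusted p = 1.3e-08 and 1.3e-05). Cd4 is also transcribed in some macrophages and dendritic cells. The part of these cells in the Cd4 and Cd8a reads, and so in the shares above, was not tested. All these intervals cover counting error only.

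**Figure D3:**
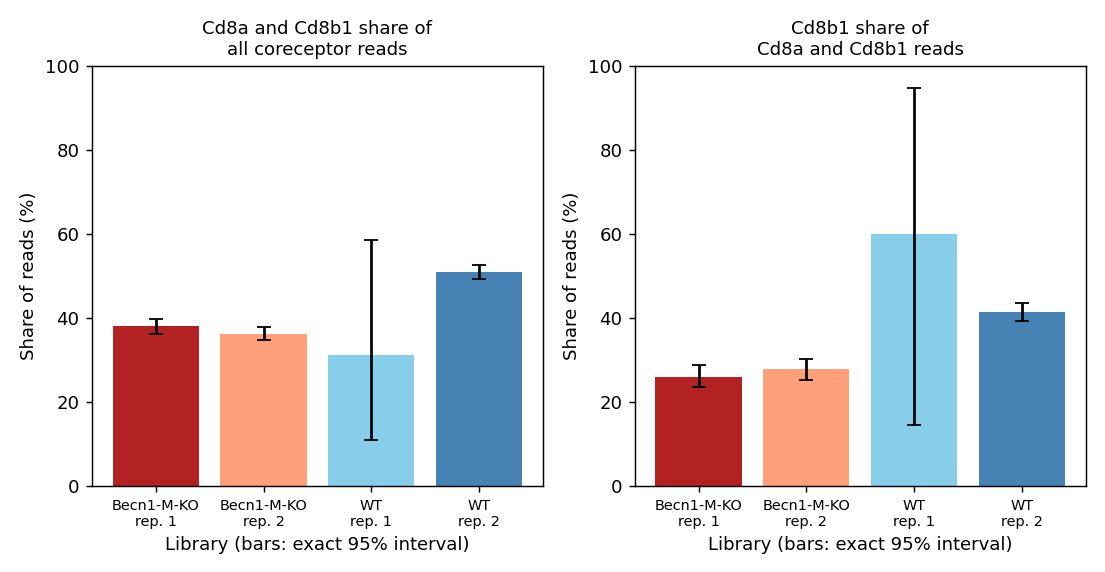
Percentage of coreceptor reads on Cd8a and Cd8b1, and percentage of CD8 reads on Cd8b1, in each library, with exact 95% binomial intervals. Both KO libraries lie below WT replicate 2 in each share, and the bars of WT replicate 1 rest on 16 and 5 reads.

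The adhesion and costimulatory genes split evenly, with Thy1, Cd27 and Cd5 lower in KO than in WT replicate 2 and Cd2, Cd6 and Cd28 not called. Thy1, a surface glycoprotein of all mouse T cells that some stromal cells also carry, had 60.0 and 59.9 CPM in KO, against 6.99 CPM in WT replicate 1 and 128.6 CPM in WT replicate 2. KO sat 2.14-fold below WT replicate 2 (log2 fold change −1.10 ± 0.091, adjusted p = 4.1e-06). Cd5, which dampens receptor signals, had 34.3 and 35.6 CPM in KO, against 0.241 and 45.9 CPM in WT replicates 1 and 2 (log2 fold change −0.39 ± 0.11, adjusted p = 0.0155). Cd27, a costimulatory TNF receptor family member, had 31.5 and 29.1 CPM in KO, against 9.76 and 43.1 CPM in WT replicates 1 and 2 (−0.51 ± 0.12, adjusted p = 0.00476). It lies wholly within Vamp1 on the other strand, so its reads cannot be told apart from Vamp1's where strand was not used.

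The 3 uncalled surface genes sat close to WT replicate 2 in both KO libraries. Cd2, an adhesion receptor, had 92.8 and 91.9 CPM in KO, against 1.45 and 94.8 CPM in WT replicates 1 and 2 (log2 fold change −0.038 ± 0.093, adjusted p = 0.772). Cd6, a scavenger receptor family member that binds ALCAM, had 57.0 and 54.0 CPM in KO, against 0.844 and 54.2 CPM in the WT libraries (0.034 ± 0.10, adjusted p = 0.819). Cd28, the receptor for CD80 and CD86, had 18.0 and 20.0 CPM in KO, against 0.723 and 18.5 CPM in the WT libraries (0.040 ± 0.14, adjusted p = 0.847). None of these p-values shows that the levels were equal.

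Of the 10 receptor-proximal signalling genes, 7 were called lower in KO than in WT replicate 2, 2 higher and 1 was not called. Of all genes tested, 23.3% were called lower and 21.7% higher, so the 2 higher calls are near the share of all genes. Lcp2 encodes SLP-76, an adaptor that Zap70 phosphorylates, and is also expressed by myeloid cells and platelets. It had 98.8 and 102 CPM in KO, against 3.74 CPM in WT replicate 1 and 56.4 CPM in WT replicate 2, so that KO lay above both WT libraries. Relative to WT replicate 2 it was 1.78-fold higher (log2 fold change 0.83 ± 0.099, adjusted p = 6.2e-05). The antisense gene 4930469K13Rik spans the whole of Lcp2 and had 2019 and 2750 reads in KO, 55 in WT replicate 1 and 1235 in WT replicate 2, beside 1969, 2661, 31 and 1185 reads for Lcp2 in the same order, so the 2 cannot be told apart. The 8 macrophage markers summed to 2255 and 2179 CPM in KO, against 142 and 1127 CPM in WT replicates 1 and 2. Of these markers, 7 were called higher than in WT replicate 2, and Lyz2 was called lower (log2 fold change −2.04). Lyz2 had 130 and 145 normalised CPM in KO, against 59.7 and 566 in WT replicates 1 and 2. The part of these markers in the Lcp2 difference was not tested.

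Rasgrp1, the exchange factor that switches on Ras downstream of diacylglycerol, was the other gene that rose. It had 79.1 and 82.7 CPM in KO, against 18.3 and 57.5 CPM in WT replicates 1 and 2 (log2 fold change 0.49 ± 0.099 against WT replicate 2, adjusted p = 0.00228). Zap70, the kinase that reads phosphorylated CD3 chains, was not called, at 48.4 and 44.3 CPM in KO against 1.45 and 49.8 CPM in the WT libraries (−0.10 ± 0.11, adjusted p = 0.476). The other 7 genes were lower in KO than in WT replicate 2.

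Skap1, an adaptor that links the receptor to integrin adhesion, fell the most of all members. It had 30.2 and 29.9 CPM in KO, against 8.92 CPM in WT replicate 1 and 90.9 CPM in WT replicate 2, which was 3.02-fold lower than in WT replicate 2 (log2 fold change −1.60 ± 0.098, adjusted p = 4.2e-07). Lck, the kinase that starts the cascade, had 100.2 and 94.2 CPM in KO, against 5.78 and 161.9 CPM in WT replicates 1 and 2 (−0.74 ± 0.096, adjusted p = 0.000122). Prkcq, the protein kinase C isoform of the T cell synapse, had 30.3 and 30.6 CPM in KO, against 3.13 and 53.8 CPM in the WT libraries (−0.82 ± 0.11, adjusted p = 0.000136). For each of these 3 genes the KO libraries agreed closely and lay between the WT libraries.

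Themis, which tunes receptor signals during thymic selection, had 16.7 and 15.6 CPM in KO, against 3.61 and 29.7 CPM in WT replicates 1 and 2 (log2 fold change −0.88 ± 0.13, adjusted p = 0.000328). Lat, the membrane scaffold that Zap70 phosphorylates, had 52.4 and 49.6 CPM in KO, against 0.603 and 77.6 CPM in the WT libraries (−0.61 ± 0.098, adjusted p = 0.00055). Txk, a Tec family kinase, and Ubash3a, a negative regulator of receptor signalling, fell by 0.66 and 0.61 on the log2 scale against WT replicate 2 (adjusted p = 0.00513 and 0.00477). All 4 were lower in both KO libraries than in WT replicate 2 and higher than in WT replicate 1.

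Among the transcription factors and chromatin regulators, 5 of 7 were lower in KO than in WT replicate 2 and none was higher; at an unadjusted p under 0.05 edgeR gave 6 lower and 0 higher, and DESeq2 also called none higher. Lef1, a high-mobility-group factor of naive T cells, had 14.1 and 14.4 CPM in KO, against 2.41 CPM in WT replicate 1 and 40.3 CPM in WT replicate 2. It was 2.83-fold lower in KO than in WT replicate 2 (log2 fold change −1.50 ± 0.13, adjusted p = 4.7e-06). Its relative Tcf7, the TCF-1 factor, had 75.5 and 78.5 CPM in KO, against 1.57 and 124.2 CPM in WT replicates 1 and 2 (−0.69 ± 0.092, adjusted p = 0.00015). Tcf7 shares its span with a lincRNA on the same strand, AL935177.3, which had more reads than Tcf7 in every library, so the reads of the 2 are hard to assign.

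Bcl11b, which holds T cells in their lineage, had 24.7 and 25.4 CPM in KO, against 1.45 and 43.9 CPM in WT replicates 1 and 2 (log2 fold change −0.81 ± 0.12, adjusted p = 0.000266). Tox, a factor of T cell development and exhaustion, had 11.6 and 13.9 CPM in KO, against 1.93 and 20.4 CPM in the WT libraries (−0.67 ± 0.16, adjusted p = 0.00554). Gata3, a factor of T cell development and type 2 helper cells, was the lowest-count member and had 156 and 170 reads in KO, 11 in WT replicate 1 and 221 in WT replicate 2 (−0.56 ± 0.20, adjusted p = 0.0428). Its call was lost with DESeq2 size factors or library totals as the scaling.

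Satb1 and Ets1 were not called. Satb1, a chromatin organiser of thymocytes that other tissues also use, had 70.6 and 74.2 CPM in KO, against 28.4 and 86.1 CPM in WT replicates 1 and 2 (log2 fold change −0.25 ± 0.096, adjusted p = 0.0579), and a stricter filter on low counts brought it under the threshold (adjusted p = 0.0449). Ets1, a factor that B cells also express, had 231 and 236 CPM in KO, against 14.7 and 238 CPM in the WT libraries (−0.024 ± 0.11, adjusted p = 0.886). Both KO values of Ets1 lay just under WT replicate 2.

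Each member was also set against the CD3 reads of its own library, 3327 and 4269 reads in KO, 149 in WT replicate 1 and 5211 in WT replicate 2. Per CD3 read, the other 26 members centred on no difference between KO and WT replicate 2, with a median log2 difference of 0.0011, 13 positive and 13 negative. Around that centre they spread from −1.01 for Skap1 to 1.42 for Lcp2. For 9 genes both KO intervals lay above that of WT replicate 2, and these were Cd4, Cd2, Cd6, Cd28, Zap70, Lcp2, Rasgrp1, Satb1 and Ets1. For 5 genes both lay below it, and these were Cd8b1, Thy1, Skap1, Prkcq and Lef1. The intervals are exact and cover counting error only, and the other 12 genes were placed on neither side.

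Lcp2 had 59.2 and 62.3 reads per 100 CD3 reads in the KO libraries, against 22.7 in WT replicate 2. Rasgrp1 had 47.3 and 50.4, against 23.2 in WT replicate 2. Cd4 had 53.9 and 54.2, against 37.8 in WT replicate 2. These genes stood higher per CD3 read in both KO libraries, Lcp2 by the widest margin. Reads of these genes from cells other than T cells were not separated. Skap1 had 18.1 and 18.2 reads per 100 CD3 reads in KO, against 36.6 in WT replicate 2. Lef1 had 8.42 and 8.76 in KO, against 16.2 in WT replicate 2. Cd8b1 had 8.66 and 8.60 in KO, against 16.3 in WT replicate 2. Each of these stood lower in both KO libraries, and Cd8a, at 24.5 and 22.3 in KO against 23.0 in WT replicate 2, on neither side. With Cd3e alone as the denominator the median log2 difference was −0.34, so the centre depends on which chain is counted. The differences of all 26 members moved by more than the spread of the KO libraries, so the placements above are for the summed CD3 reads.

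**Figure D4:**
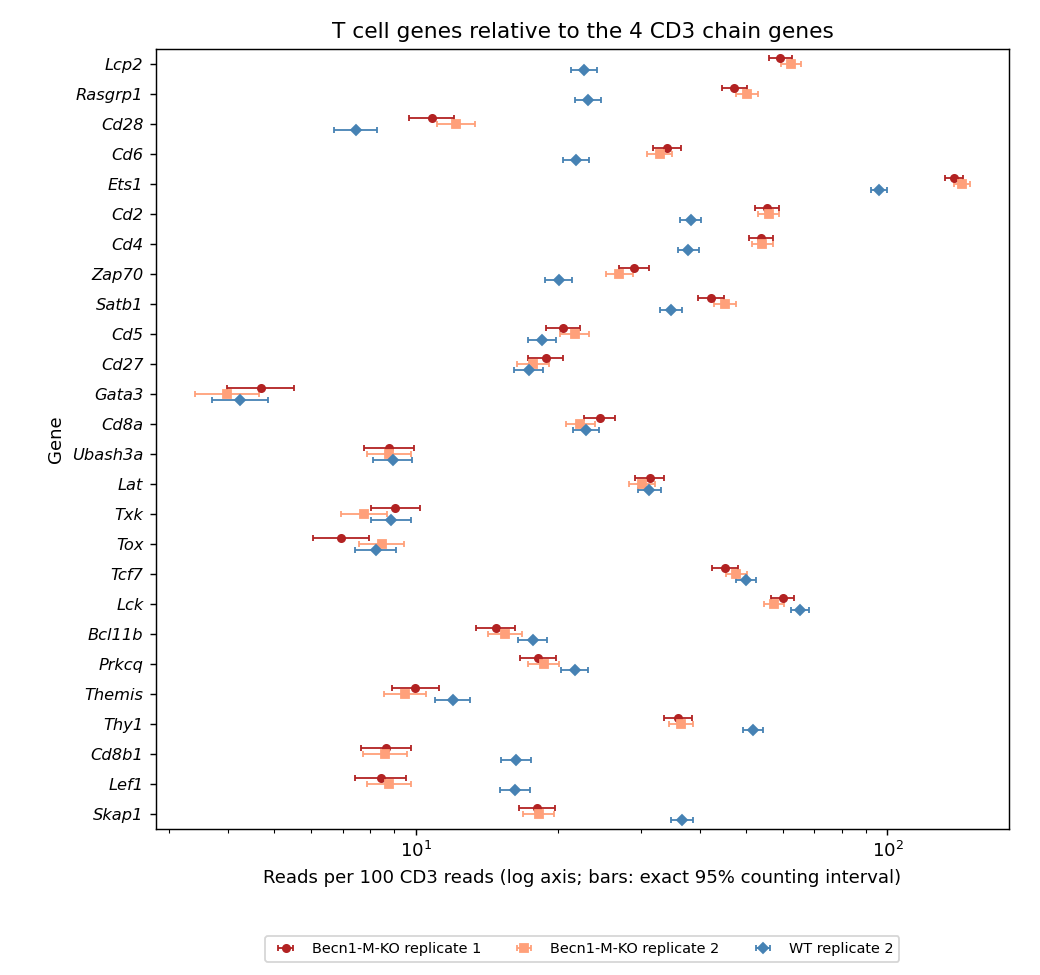
Reads per 100 CD3 reads, on a log axis, of the 26 members outside the CD3 complex in the KO libraries and WT replicate 2, with exact 95% counting intervals and genes ordered by the ratio of KO to WT replicate 2. Lcp2, at 59.2 and 62.3 in KO against 22.7, heads the order and Skap1, at 18.1 and 18.2 against 36.6, ends it.

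Against WT replicate 1, all 30 members were called higher in KO, and 65.9% of all genes tested were called in that comparison, 33.7% higher and 32.2% lower. The median log2 fold change of the members was 4.10, within a range from 1.35 to 7.72, whereas the median over all genes was 0.07. WT replicate 1 had 1 read of Cd3e, 2 each of Cd8a and Cd5 and 3 of Cd8b1, so their fitted values, the upper end of that range included, depend on the prior count. As ratios of reads scaled by the TMM library sizes, KO over WT replicate 1, these came to 222 for Cd3e (95% counting interval 39.8 to 8791), 160 for Cd8a (44.2 to 1320), 145 for Cd5 (40.2 to 1202) and 39.4 for Cd8b1 (13.4 to 192). For the 30 members together the ratio on the same scale was 10.9 (10.3 to 11.6), against 0.76 (0.75 to 0.77) over WT replicate 2. The gland markers given above move with this comparison, and their part in it was not tested.

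Cd247 took 41.1% and 43.0% of the CD3 reads in KO, against 94.0% in WT replicate 1 (140 of 149 reads) and 39.0% in WT replicate 2. The smallest log2 fold changes over WT replicate 1 were those of Satb1 (1.35), Cd27 (1.63), Skap1 (1.75) and Cd247 (2.04). Trbc2, a constant region of the receptor's beta chain, had 1432 and 1790 reads in KO, against 7 in WT replicate 1 and 2182 in WT replicate 2.

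Set against both WT libraries as one group, no member was called, and 3.22% of all genes tested were, 1.04% higher and 2.18% lower. With edgeR no member reached an unadjusted p under 0.05, whereas 2180 genes that were higher and 3391 that were lower did among all those tested. Neither DESeq2, which called 1325 genes higher and 2430 lower, nor limma-voom called a member. The members' median log2 fold change was 0.30, with 24 positive and 6 negative, and their adjusted p-values ran from 0.319 for Rasgrp1 to 0.992 for Cd3d. Lcp2 had the highest estimate at 1.73 (adjusted p = 0.421) and Skap1 the lowest at −0.74. Without WT replicate 1 the members' median log2 fold change in this comparison was −0.55, and without WT replicate 2 it was 4.09. The medians over all genes in those fits were 0.0045 and 0.056. The authors' deposited table of comparisons lists 5511 genes, all with an unadjusted p under 0.05, and held 0 of the 30 members. Their lists of 86 higher and 71 lower genes also held 0 of them. Absence from that table does not separate a gene that was not tested from one above 0.05.

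Other T cell genes were read alongside. Against WT replicate 2, 23.3% of all genes tested were called lower and 21.7% higher, which is the share to set beside each list. Of 6 receptor constant region genes, 3 were lower in KO than in WT replicate 2 and 3 were not called, with a median log2 fold change of −0.58. That median includes gamma chain genes with few reads. Tcrg-C1 had 11 and 15 reads in KO and 28 in WT replicate 2. Tcrg-C2 had 8 and 24 against 22, and Tcrg-C4 24 and 24 against 38. Trbc2 had a log2 fold change of −0.56, Trbc1 of −0.45 (adjusted p = 0.000678 and 0.00474), and Trac, the alpha chain constant region, of −0.18 (adjusted p = 0.253). Of 10 genes of naive T cell homing and survival, 8 were lower, none was higher and 2 were not called (edgeR; 9 lower and 0 higher at an unadjusted p under 0.05), with a median of −0.53. Nsg2 fell by 1.41, Foxp1, a factor of T cell quiescence, by 1.04, Il7r, the receptor for the survival cytokine interleukin-7, by 0.90 and Dgka by 0.62 on the log2 scale. In WT replicate 1 Foxp1 had 687 reads and Dgka 505, whereas Nsg2 had 12, Il7r 4 and Cd3e 1. The cells behind the Foxp1 and Dgka reads were not tested.

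Of 30 other genes of receptor signalling, Dgka among them, 13 were higher in KO than in WT replicate 2, 5 were lower and 12 were not called, with a median log2 fold change of 0.15. Of all genes tested, 21.7% were called higher in that comparison and 23.3% lower. Lax1, a membrane adaptor of T and B cells, had 246 and 237 CPM in KO, against 1.81 and 63.9 CPM in WT replicates 1 and 2 (1.92, adjusted p = 3.8e-07). Malt1, a paracaspase that both receptors use, rose by 1.10, Sla by 1.01 and the phosphatase Ptpn22 by 1.05. B cells express many genes of this list, and 3 of 8 B cell markers were higher in KO than in WT replicate 2, with 1 lower and 4 not called; their part was not tested. Of 12 activation genes, 7 were higher and 2 lower, with a median of 0.55. Lower calls in the signalling and activation lists fell below the share of all genes. Tnfrsf9 (4-1BB) and Tnfrsf4 (OX40) rose by 1.16 and 0.83, whereas the immediate early genes Nr4a1 and Nr4a2 fell by 1.23 and 2.16. Nr4a1 had 21.2 and 21.1 CPM in KO, against 118.9 and 49.5 CPM in WT replicates 1 and 2. Nr4a2 had 3.16 and 2.58 CPM in KO, against 22.5 and 12.8 CPM in the WT libraries. Both were highest in WT replicate 1, which had 1 read of Cd3e, and the cells behind these reads were not tested.

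Against WT replicate 1, 28 of the 30 other signalling genes, 9 of the 10 naive genes, 9 of the 12 activation genes and 4 of the 6 constant region genes were higher in KO. Of all genes tested, 33.7% were called higher in that comparison. Against both WT libraries no gene of these 4 lists was called, and edgeR's unadjusted p was under 0.05 for 2 signalling genes and 1 activation gene that were higher and 2 activation genes that were lower. NK cell markers, some of which T cells share, summed to 83.8 and 67.9 CPM in KO, against 7.62 and 60.2 CPM in WT replicates 1 and 2, with 2 of 8 lower than in WT replicate 2, near the 23.3% of all genes called lower in that comparison. Endothelial markers had 3 of 5 lower and fibroblast markers 6 of 6 higher than in WT replicate 2, and gland markers 7 of 8 lower. The share of all genes called higher than in WT replicate 2 was 21.7%. The fibroblast sums were 959 and 786 CPM in KO, against 211 and 280 CPM in WT replicates 1 and 2, and the endothelial sums 284 and 230 CPM in KO, against 40.6 and 293 CPM in the WT libraries.

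**Figure D5:**
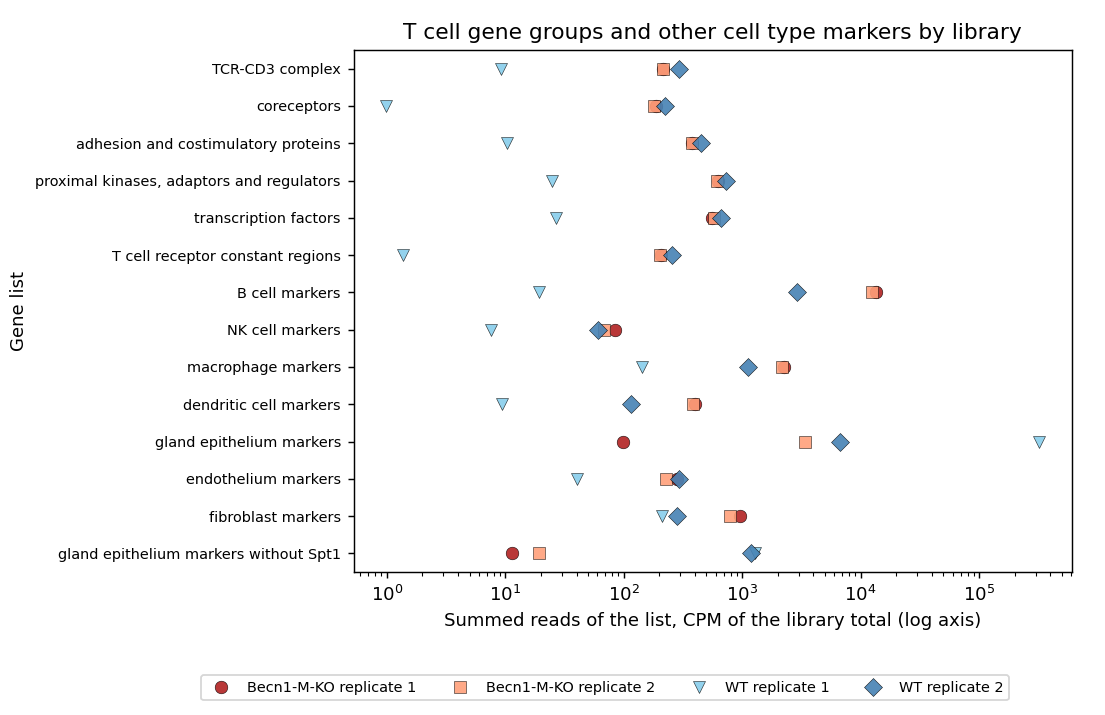
Summed CPM of all reads for the CD3 genes and for the marker lists of other cell types in each library, on a log axis. B cell markers stand at 13420 and 12504 in KO, against 19.4 in WT replicate 1 and 2915 in WT replicate 2, and gland markers reach 321462 in WT replicate 1. Of the B cell sums, Ighm alone supplies 11056 and 10225 in KO and 1419 in WT replicate 2.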

How the data were processed

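RNA was sequenced from 2 KO and 2 WT samples on an Ion Torrent instrument after ribosomal RNA depletion, per the labels' protocols. The main deposited table gives raw read counts for each gene, per the file headers. A second deposited table holds log2 values centred on each gene's median, and the authors' comparison table holds log2 fold changes, linear fold changes and unadjusted p-values, per the file headers. From the comparison tables only the presence or absence of members was read. The submitters' processing notes name mm10 and DESeq2 1.62 without a role; which aligner, counter and strand setting were used is not given in the sources used here. For all 38087 genes the listed length is the genomic span, and reads in introns may be included. Another 8 columns of per-sample values were not used.

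Members, role groups and the 11 other gene lists were chosen with earlier results of these data known. Of the 138 entries in all the lists, 137 were matched. Every member was reported, and of each other list the counts and up to 4 genes with the smallest p against WT replicate 2 and an average log2 CPM of at least 2. Most marker genes that the rule also allows were given by their lists' counts.

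Tests on the counts used R 4.3.3 and edgeR 4.0.16 (filterByExpr with minimum count 10 and minimum total 15, TMM scaling, quasi-likelihood test, Benjamini-Hochberg adjustment, threshold 0.05), on KO against both WT libraries and, in a fit with each WT library as its own level, on KO against each. In the second fit the spread comes from the 2 KO libraries. Normalised CPM use TMM-scaled library sizes, and CPM of all reads use library totals. The floor of 3 reads stood at 0.192 and 0.149 CPM in the KO libraries and 0.186 and 0.168 CPM in the WT libraries. Read shares have exact 95% intervals; these and the floors cover counting error only. Levels per CD3 read divide by the reads of Cd3e, Cd3d, Cd3g and Cd247. The scripts were tested on simulated data. Alternatives were DESeq2 size factors, library totals, other filters, limma-voom (limma 3.58.1), DESeq2 1.42.0, a replicate block, each library left out and other CD3 denominators. Whether the replicate numbers pair the samples is not stated in the labels. Differences between the WT replicates and between the KO replicates correlated at −0.11. That value cannot decide on pairing, as the WT libraries differed widely in gland reads.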

Additional observations from a re-analysis of the deposited data

How the results depend on the processing

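Against WT replicate 1 all 30 members stayed higher in every scaling, filter and tool run with a test. Against both WT libraries 0 members were called in every alternative that kept all 4 libraries or left out 1 KO library; with library totals alone, the replicate block or 1 KO library left out, 0 of all genes were called, so these say nothing of the members. With 1 library left out, KO or WT, the members called ran from 0 to 30 higher and from 0 to 20 lower and their median from −0.55 (without WT replicate 1) to 4.09 (without WT replicate 2). Against WT replicate 2, DESeq2 called 1 member higher and 8 lower, Gata3 lost its call with DESeq2 size factors, Gata3 and Cd5 with library totals, and a stricter filter added Satb1. With library totals alone Cd4 (0.063), Cd2 (0.092), Zap70 (0.025) and Ets1 (0.11) turned positive; library totals moved the median of all genes to 0.60 against both WT libraries, 0.13 against WT replicate 2 and 1.39 against WT replicate 1. The median against WT replicate 2 was −0.54 with DESeq2 size factors, −0.43 with library totals, −0.54 with no filter, −0.53 with DESeq2 and −0.58 to −0.51 with 1 KO library left out. Against WT replicate 1 it was 4.07 with DESeq2 size factors, 5.42 with library totals, 4.18 with no filter, 4.06 with limma-voom, 4.07 with DESeq2 and 4.12 with 1 KO library left out. Per CD3 read the median was −0.033 to 0.061 against WT replicate 2 with 1 KO library left out, −0.34 with Cd3e alone, −0.18 with all 30 members and 0.076 without Cd247 as the denominator; against WT replicate 1 it was 0.88, and −3.71, 0.64 and −2.38 with those 3 denominators. The CD8 share difference was −16.3 percentage points with Cd8b1 alone and −7.60 with Cd8a alone. Against both WT libraries these estimates changed sign: with library totals Cd3d 0.12 and Themis 0.17, with DESeq2 Cd3d 0.00099, and with limma-voom Cd3d 1.69, Cd8b1 1.14, Thy1 0.68, Themis 0.24 and Lef1 0.0099. With the replicate block Cd3d 1.94, Cd8b1 1.19, Thy1 0.96, Skap1 0.047, Themis 0.56 and Lef1 0.40 changed sign. The crossed replicate block, chosen after seeing the data like the denominator without Cd247, called 202 genes higher and 643 lower, none of them a member, and gave Cd3d 1.94, Cd8b1 1.18, Thy1 0.96, Skap1 0.047, Themis 0.57 and Lef1 0.40. With 1 library left out the ranges were Cd3e −0.24 to 7.71, Cd3g −0.55 to 6.18, Cd247 −0.47 to 2.03, Cd4 −0.062 to 6.05, Cd8a −0.55 to 7.27, Cd2 −0.033 to 5.97, Cd5 −0.39 to 7.13, Cd27 −0.50 to 1.62, Lck −0.73 to 4.05, Zap70 −0.0995 to 4.98, Txk −0.66 to 2.92, Lat −0.60 to 6.37, Ubash3a −0.60 to 4.08, Prkcq −0.82 to 3.26, Tcf7 −0.68 to 5.60, Bcl11b −0.80 to 4.09, Gata3 −0.55 to 2.41, Tox −0.67 to 2.71, Satb1 −0.24 to 1.33, Ets1 −0.018 to 3.97, Cd3d −1.01 to 6.07, Cd8b1 −1.49 to 5.26, Thy1 −1.09 to 3.08, Skap1 −1.59 to 1.74, Themis −0.88 to 2.14, Lef1 −1.50 to 2.54. The cause of these changes was not tested. Few member reads, not a low total, limit WT replicate 1, where 4 members had 3 reads or fewer and fitted values depend on the prior count.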
